A study of Mus musculus with 40 samples.

Results

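Synaptic vesicle fusion is carried out by a small set of proteins, and the transcripts of 8 of them were followed here through 40 RNA sequencing libraries of mouse forebrain. The genes were Snap25, Stx1a, Vamp1, Vamp2, Syt1, Syt2, Cplx1 and Cplx2. They were taken by gene symbol from the 41388 genes in the count files, and all 8 passed the filter on low counts in every fit. The mice were 21 days old and carried a Cre-dependent reporter that tags ribosomes by fusing EGFP to the ribosomal protein Rpl10a. In the RBP4 line the reporter was switched on by the BAC transgene Tg(RBP4-cre)KL100Gsat/Mmcd, which marks layer 5 pyramidal neurons, and in the VGAT line by Cre placed in the Slc32a1 gene, which marks GABAergic neurons of the whole dissected forebrain. Each of 5 pools per line gave 4 fractions, with no animals without the reporter. WCH was RNA of the whole homogenate, TRAP was RNA captured with the tagged ribosomes from the homogenate, SNF was RNA of the synaptoneurosome band of a density gradient, and ST (SynapTRAP) was RNA captured with tagged ribosomes from that band. The 8 groups therefore held 5 libraries each. The labels name the tissue as cortex, whereas the protocol describes pooled forebrains of several mice of both sexes.

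In nerve terminals, the vesicle protein synaptobrevin (Vamp1, Vamp2) zippers with syntaxin 1A (Stx1a) and SNAP-25 (Snap25) of the plasma membrane into a 4-helix SNARE bundle that pulls the membranes together. Synaptotagmins 1 and 2 (Syt1, Syt2) are the fast calcium sensors that trigger this step, and complexins (Cplx1, Cplx2) bind the assembled bundle, clamp it and prime it for release. In the forebrain, Vamp2 and Syt1 are the widely used forms, whereas Vamp1 and Syt2 are best known from hindbrain and spinal cord and from fast-spiking inhibitory neurons. The proteins act in axon terminals, which lie far from the nucleus where their mRNAs are made.

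Vamp1 with Vamp2, Syt2 with Syt1, and Cplx1 with Cplx2 are paralogs, and a read of 50 bases must tell them apart. For each pair, the coding exon of equal length with the most matching bases is shown because the ratios given further on rest on this separation. Capitals mark the bases that differ between the members of a pair, and the sequences are in the direction of the transcript, from GENCODE M21 transcripts on GRCm38.
Vamp1, coding exon 3, chr6:125218911-125219069, plus strand: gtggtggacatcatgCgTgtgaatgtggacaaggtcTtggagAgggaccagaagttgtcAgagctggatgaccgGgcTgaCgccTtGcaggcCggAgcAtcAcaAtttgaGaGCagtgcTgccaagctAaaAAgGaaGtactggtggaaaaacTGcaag
Vamp2, coding exon 3, chr11:69089731-69089889, plus strand: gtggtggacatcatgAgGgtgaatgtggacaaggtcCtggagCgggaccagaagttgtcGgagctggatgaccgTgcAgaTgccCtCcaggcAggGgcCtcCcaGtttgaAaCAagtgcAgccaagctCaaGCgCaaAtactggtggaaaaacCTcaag
Syt2, coding exon 8, chr1:134747475-134747678, plus strand: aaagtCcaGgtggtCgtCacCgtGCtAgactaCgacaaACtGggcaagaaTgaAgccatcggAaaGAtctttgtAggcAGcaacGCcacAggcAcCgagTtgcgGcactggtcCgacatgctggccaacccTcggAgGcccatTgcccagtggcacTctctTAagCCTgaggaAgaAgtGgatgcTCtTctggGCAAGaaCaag
Syt1, coding exon 8, chr10:108500543-108500746, minus strand: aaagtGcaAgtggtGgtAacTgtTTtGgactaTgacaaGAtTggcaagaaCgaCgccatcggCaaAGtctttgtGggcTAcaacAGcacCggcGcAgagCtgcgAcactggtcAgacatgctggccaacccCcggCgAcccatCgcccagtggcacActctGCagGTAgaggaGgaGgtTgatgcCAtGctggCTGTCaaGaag
Cplx1, coding exon 3, chr5:108520132-108520326, minus strand: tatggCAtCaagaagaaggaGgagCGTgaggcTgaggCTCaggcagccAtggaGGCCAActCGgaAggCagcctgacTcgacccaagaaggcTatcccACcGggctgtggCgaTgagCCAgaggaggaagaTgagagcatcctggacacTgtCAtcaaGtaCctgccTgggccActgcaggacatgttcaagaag
Cplx2, coding exon 3, chr13:54379512-54379706, plus strand: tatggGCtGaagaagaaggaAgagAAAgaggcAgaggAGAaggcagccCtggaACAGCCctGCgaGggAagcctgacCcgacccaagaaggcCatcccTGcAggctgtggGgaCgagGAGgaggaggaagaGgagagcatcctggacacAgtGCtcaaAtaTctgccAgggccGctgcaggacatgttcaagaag
The Vamp exons differed at 26 of 159 bases (83.6% identical), the Syt exons at 50 of 204 (75.5%) and the Cplx exons at 40 of 195 (79.5%). Over all coding exons of equal length in a pair, identity was 79.7% for Vamp1 and Vamp2, 78.5% for Syt2 and Syt1 and 79.6% for Cplx1 and Cplx2, so in the Syt and Cplx pairs the remaining exons were on average more alike than the ones shown. Over the whole principal transcripts, the longest run shared within a pair was 18 bases for Vamp1 and Vamp2, 26 for Syt2 and Syt1, and 32 for Cplx1 and Cplx2. All were shorter than a read. Of the 50-base stretches of each principal transcript, none occurred in transcripts of another gene for Stx1a, Vamp1, Vamp2, Syt1 or Cplx1, whereas 0.0293% did for Syt2, 0.726% for Snap25 and 4.28% for Cplx2. No exon of the 8 genes, as placed in the count files, overlapped an exon of another gene in GENCODE M21. Overlap with other genes' exons as placed in the count files was not checked.

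The genes lie on 8 separate stretches of 7 chromosomes, at positions taken from the count files, which match GRCm38. Snap25 (ENSMUSG00000027273) spans chr2:136713453-136782428 on the plus strand, Stx1a (ENSMUSG00000007207) chr5:135023482-135051100 on the plus strand, and Vamp1 (ENSMUSG00000030337) chr6:125215551-125244543 on the plus strand. Vamp2 (ENSMUSG00000020894) spans chr11:69088490-69092384 on the plus strand, Syt1 (ENSMUSG00000035864) chr10:108497650-109010982 on the minus strand, and Syt2 (ENSMUSG00000026452) chr1:134646677-134762593 on the plus strand. Cplx1 (ENSMUSG00000033615) spans chr5:108518554-108550024 on the minus strand and Cplx2 (ENSMUSG00000025867) chr13:54371349-54383917 on the plus strand. Counts were summed over all annotated exons of a gene, introns excluded.

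The libraries held 14259535 to 22037703 counted reads each, and a count of 1 equalled 0.0455 to 0.112 cpm. Throughout, cpm is the usual depth-scaled count, with mitochondrial, rRNA and tRNA genes left out of the depth, and mitochondrial reads made up 0.0584% to 41.9% of a library. Slc32a1, the vesicular GABA transporter and the locus that carries Cre in the VGAT line, was at 48.4 cpm or above in all VGAT TRAP libraries (up to 77.2 cpm) and at 4.99 cpm or below in those of RBP4 (down to 1.49 cpm). Among the ST libraries, RBP4 replicate 4 reached 49.9 cpm of Slc32a1, a level within the VGAT range of 23.3 to 51.3 cpm and above the remaining 4 RBP4 libraries (10.9 to 19.7 cpm), so that library stood apart in this gene. Its 5 GABAergic markers summed to 329.9 cpm, the highest of RBP4 ST but close to replicates 1 (322 cpm) and 5 (306 cpm), and its 3 parvalbumin interneuron markers to 256 cpm, within the range of its group. RBP4 TRAP replicate 5 had the highest summed markers of other cells in its group, with 436.5 cpm for 5 GABAergic genes against a group median of 113 cpm and 5270 cpm for 5 oligodendrocyte genes against a median of 846 cpm. VGAT TRAP replicate 3 had 337 cpm of 4 layer 5 and excitatory markers against 183 to 210.2 cpm in the other 4, the lowest GABAergic sum of its group (3027 cpm) and the highest astrocyte and oligodendrocyte sums (1037 and 2238 cpm). SNF replicate 3 held 40.2% mitochondrial reads in RBP4 and 41.9% in VGAT, against 11.2% to 19.4% in the other SNF libraries, and its astrocyte markers summed to 24784 and 24494 cpm, against 8522 to 13078 cpm in the others. The summed level of 19 glial and endothelial markers ran from 723 to 6947 cpm in RBP4 TRAP, from 561 to 3336 cpm in VGAT TRAP, and from 35068 to 60970 cpm in the ST libraries of both lines. None of these markers was at 0 throughout a group. ST in either line was thus not limited to transcripts of the tagged neurons.

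Snap25 was by far the most abundant member in RBP4 WCH. The paper reports that its library preparation left a heavy read bias toward the downstream end of transcripts. Counts therefore need not scale with length, and levels and paralog shares per kilobase cannot be read as transcript proportions. Per kilobase of summed exon length in RBP4 WCH, the mean level was 1248 ± 224 cpm for Snap25 (SD, n = 5, as for the values that follow), 259 ± 56.3 for Vamp2, 255 ± 21.2 for Syt1, 182 ± 41.4 for Cplx1, 114 ± 22.1 for Stx1a, 72.7 ± 8.41 for Cplx2, 8.49 ± 0.580 for Vamp1 and 2.81 ± 0.608 for Syt2. Vamp2 and Syt1 differed by less than their spread, and the other neighbours in this order were further apart than 1 SD of either. The forebrain forms Vamp2 and Syt1 were far above their paralogs Vamp1 and Syt2, whereas the complexins were closer together. In RBP4 WCH the order was the same when the length of the principal transcript was used in place of the summed exons. In VGAT TRAP, Cplx1 (711 ± 84.7 cpm per kilobase) was above Vamp2 (438 ± 48.7), and Stx1a (39.9 ± 16.6) was below Cplx2 (76.9 ± 8.24) and differed from Vamp1 (32.9 ± 4.09) by less than its spread. By principal transcript length the VGAT TRAP order changed, with Vamp1 at a mean of 104 cpm per kilobase, above Cplx2 (76.9) and Stx1a (49.2).

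**Figure D1:**
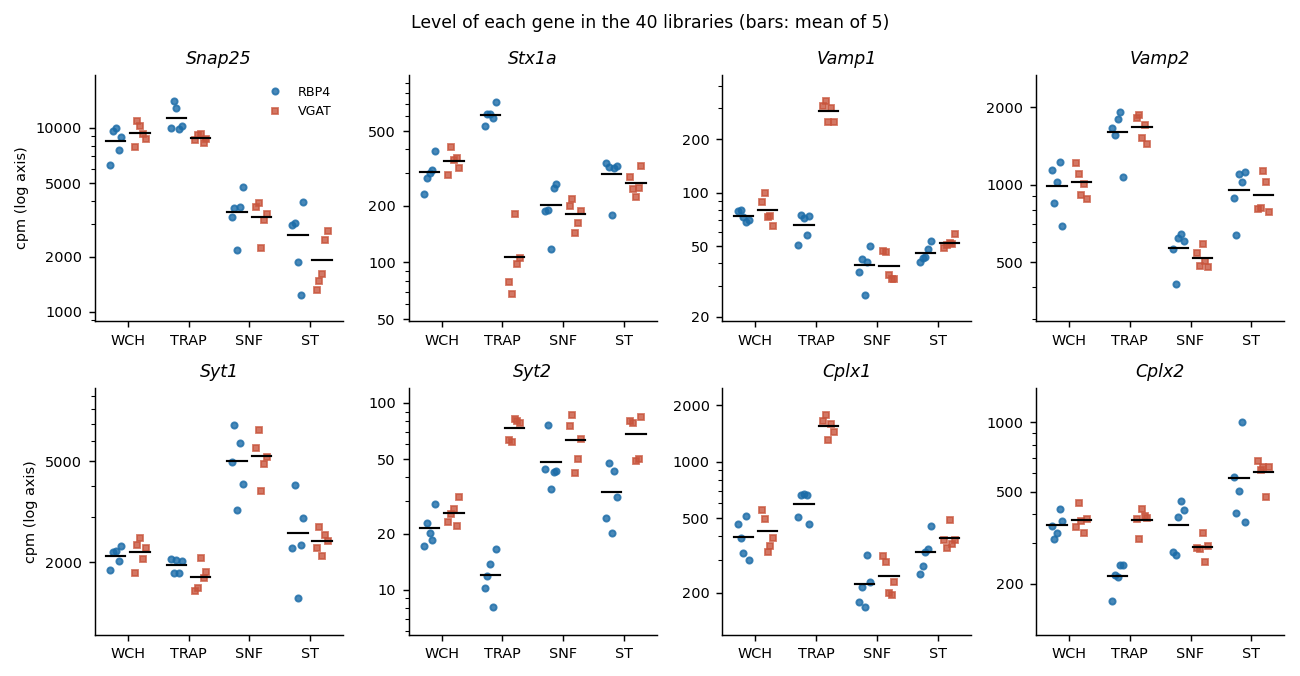
Level of each of the 8 genes in every library, in cpm on a log axis, by fraction (WCH, TRAP, SNF, ST) and line (circles RBP4, squares VGAT; horizontal bars are means of 5 libraries). The lines overlap for every gene in WCH and SNF, and lie far apart in TRAP for Stx1a, Vamp1, Syt2 and Cplx1.

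The whole homogenate served as a background for the comparison of the lines, since it holds RNA of all cells. Stx1a was at 230.1, 282, 298, 310.0 and 393 cpm in the 5 RBP4 WCH libraries and at 291, 413, 352, 360.0 and 319.9 cpm in VGAT WCH. Vamp1 was at 68.5 to 80.1 cpm and 64.8 to 99.6 cpm, Syt2 at 17.3 to 28.9 cpm and 22.0 to 31.4 cpm, and Cplx1 at 300.1 to 515 cpm and 329 to 554 cpm. The groups overlapped for all 8 genes. All genes were tested with edgeR (quasi-likelihood, p adjusted after Benjamini and Hochberg), and a gene was called where the adjusted p did not exceed 0.05. By this test 0 of 8 members differed between the lines in WCH (0 also at an unadjusted p under 0.05 and 0 with DESeq2), while 0.0118% of the 16898 genes tested did. Log2 differences, RBP4 over VGAT, ran from -0.27 to -0.049.

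TRAP pulled the lines apart. For Stx1a, the target-membrane syntaxin, the 5 RBP4 TRAP libraries gave 529, 614, 616, 585 and 714 cpm, and the 5 VGAT TRAP libraries gave 79.1, 68.0, 181, 98.1 and 106 cpm. Every RBP4 library was higher than every VGAT library, and replicate 3, the library with the most layer 5 and excitatory markers, was the highest of the VGAT libraries. Without that replicate the log2 fold change was 2.80 (adjusted p = 1.6e-11, edgeR). The difference was 5.75-fold, a log2 fold change of 2.52 ± 0.21 (SE), adjusted p = 1.0e-10, by edgeR's quasi-likelihood test.

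Vamp1, the rarer synaptobrevin, went the other way. Its levels were 51.1, 75.2, 71.9, 57.8 and 73.8 cpm in RBP4 TRAP and 306, 329.9, 251, 301 and 249 cpm in VGAT TRAP. No library of one line came near the other line. The log2 fold change was -2.12 ± 0.13 (SE), adjusted p = 2.4e-13 (edgeR), with RBP4 4.35-fold lower.

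Syt2, the less abundant calcium sensor, was at 10.3, 11.8, 13.8, 8.05 and 16.5 cpm in RBP4 TRAP and at 63.6, 61.5, 82.0, 80.3 and 77.9 cpm in VGAT TRAP. The groups did not overlap, and the log2 fold change was -2.60 ± 0.23 (SE), adjusted p = 2.2e-10 (edgeR). Cplx1 was at 505, 665, 669, 665 and 465 cpm in RBP4 TRAP and at 1661, 1773, 1299.6, 1598 and 1446 cpm in VGAT TRAP. All VGAT libraries were above all RBP4 libraries, with a log2 fold change of -1.39 ± 0.18 (SE), adjusted p = 4.8e-07 (edgeR). Cplx2 showed the same direction with a smaller difference, 169, 219, 213, 240.0 and 242 cpm against 380.0, 312, 422, 393 and 386 cpm, and a log2 fold change of -0.81 ± 0.19 (SE), adjusted p = 0.0013 (edgeR).

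For the 3 remaining genes, no difference between the lines passed the test. Snap25 was at 9841 to 13943 cpm in RBP4 TRAP and 8283 to 9326 cpm in VGAT TRAP, without overlap, but with a log2 fold change of 0.37 ± 0.23 (SE), adjusted p = 0.25 (edgeR). Vamp2 was at 1069 to 1914 cpm and 1434 to 1866 cpm, with a log2 fold change of -0.062 ± 0.18, and Syt1 at 1807 to 2064 cpm and 1543 to 2078 cpm, with 0.16 ± 0.17. In all, 1 of 8 members was higher and 4 of 8 were lower in RBP4 than in VGAT, against 12.9% and 15.1% of all genes tested. The groups of 6 of the 8 did not overlap, a count that was not made over all genes. These 5 calls held under every alternative of normalization, filter, tool and left-out replicate that was run, with or without RBP4 TRAP replicate 5. Summed GABAergic markers ran from 92.5 to 436.5 cpm in RBP4 TRAP and from 3027 to 5203 cpm in VGAT TRAP. The 3 parvalbumin interneuron markers ran from 72.5 to 226 cpm and from 1956 to 2776 cpm. Striatal projection neuron markers, 5 genes, ran from 76.6 to 148 cpm and from 1266 to 2111 cpm. In bulk RNA of this kind, fewer cells of a type and less RNA per cell cannot be told apart.

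**Figure D2:**
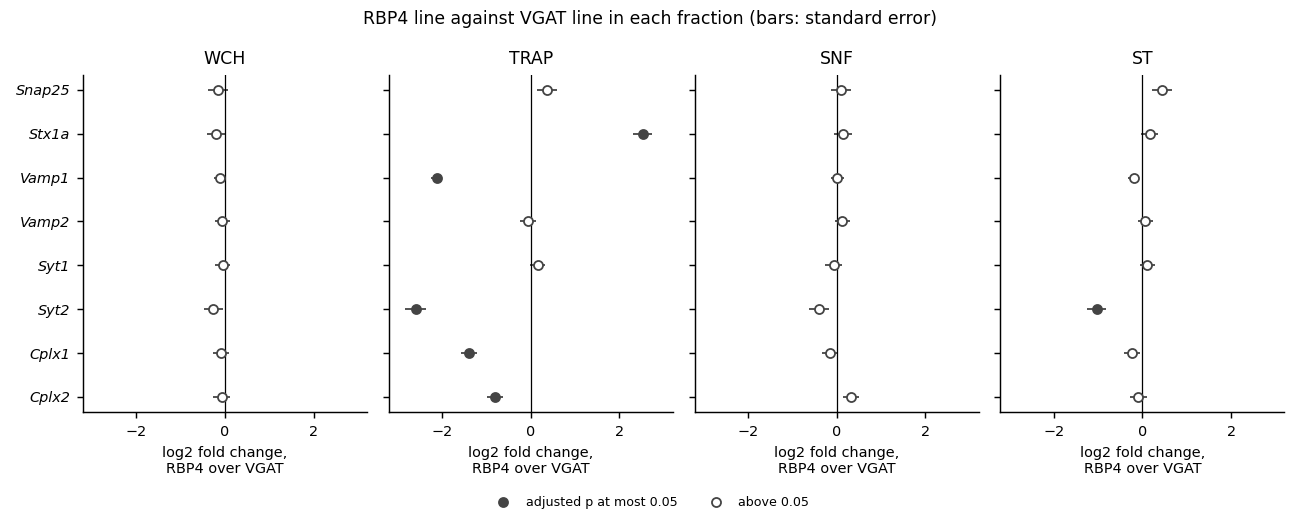
Log2 fold change of RBP4 over VGAT for the 8 genes in each fraction, with the standard error (bars); filled points passed the test (edgeR, adjusted p at most 0.05). In TRAP, Stx1a lies at 2.52 and Syt2 at -2.60, in WCH and SNF no gene is filled, and in ST only Syt2 is.

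The 4 genes that differed most between the lines in TRAP are shown with the 200 bases before their first annotated start, the more upstream of RefSeq and the count files, taken from RefSeq on GRCm38.p6 and written 5′ to 3′ in the direction of the gene. Capitals mark GGGCGG, the core of the GC box bound by Sp1-type factors, or its reverse complement CCGCCC.
Stx1a, chr5:135023282-135023481, plus strand: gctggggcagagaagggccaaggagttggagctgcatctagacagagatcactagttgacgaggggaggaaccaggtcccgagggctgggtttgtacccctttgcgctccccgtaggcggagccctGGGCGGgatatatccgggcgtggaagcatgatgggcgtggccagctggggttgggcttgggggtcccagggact
Vamp1, chr6:125215351-125215550, plus strand: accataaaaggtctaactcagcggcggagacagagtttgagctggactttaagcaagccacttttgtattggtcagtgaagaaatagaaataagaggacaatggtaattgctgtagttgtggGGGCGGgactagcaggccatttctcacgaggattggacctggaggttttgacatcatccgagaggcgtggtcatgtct
Syt2, chr1:134646412-134646611, plus strand: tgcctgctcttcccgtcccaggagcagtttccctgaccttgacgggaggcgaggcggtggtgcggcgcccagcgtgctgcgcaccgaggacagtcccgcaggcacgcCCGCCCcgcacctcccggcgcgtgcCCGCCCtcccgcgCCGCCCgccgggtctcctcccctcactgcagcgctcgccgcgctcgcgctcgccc
Cplx1, chr5:108550028-108550227, minus strand: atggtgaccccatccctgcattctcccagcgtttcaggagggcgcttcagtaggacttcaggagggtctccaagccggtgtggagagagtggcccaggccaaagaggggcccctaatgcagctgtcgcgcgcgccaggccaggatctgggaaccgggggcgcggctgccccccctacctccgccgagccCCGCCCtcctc
On either strand of the 250 bases before the first RefSeq start, the motif occurred once for Stx1a, Vamp1 and Cplx1 and 3 times for Syt2, and 32.7% of all 32851 windows of that length in the table held it. The cyclic AMP response element TGACGTCA (1.55% of windows), the E-box CACGTG (6.02%) and the TATA sequence TATAAA (12.4%) were not found in these 4 windows, and none of the motifs overlap each other. The windows had a GC content of 62.0% for Stx1a, 50.4% for Vamp1, 76.0% for Syt2 and 64.8% for Cplx1, beside a median of 52.4% over all windows. The table matched 6 of the 8 genes.

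Relative to the homogenate, capture of ribosomes changed 5 of the 8 transcripts in each line. In the RBP4 line, Stx1a rose from 303 ± 58.8 to 612 ± 67.0 cpm (SD, n = 5), higher in TRAP in 5 of 5 pools (log2 fold change 1.01 ± 0.21 (SE), adjusted p = 0.00071, edgeR). Vamp2, the main vesicular SNARE, rose from 985 ± 214 to 1599 ± 326 cpm (0.70 ± 0.21 (SE), adjusted p = 0.010), and Cplx1 from 398 ± 90.6 to 594 ± 101 cpm (0.58 ± 0.21 (SE), adjusted p = 0.032). Both were higher in TRAP in 5 of 5 pools, although the groups overlapped.

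Syt2 fell in the same line from 17.3, 22.7, 20.1, 18.4 and 28.9 cpm in WCH to the TRAP values given above, lower in 5 of 5 pools and without overlap, at a log2 fold change of -0.83 ± 0.25 (SE), adjusted p = 0.013 (edgeR). Cplx2 fell from 355, 311, 332, 419.7 and 373 cpm to 169, 219, 213, 240.0 and 242 cpm, at a log2 fold change of -0.73 ± 0.23 (SE), adjusted p = 0.015 (edgeR). Snap25 (0.42 ± 0.26), Vamp1 (-0.17 ± 0.16) and Syt1 (-0.12 ± 0.23) did not pass the test. So 3 of 8 members were higher and 2 of 8 lower in TRAP, against 8.37% and 31.5% of 17043 genes.

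In the VGAT line, 4 members rose and 1 fell. Vamp1 rose from 88.5, 99.6, 73.2, 74.0 and 64.8 cpm in WCH to the TRAP values above, 3.59-fold, at a log2 fold change of 1.84 ± 0.14 (SE), adjusted p = 2.0e-09 (edgeR). Cplx1 rose 3.66-fold (1.87 ± 0.17 (SE), adjusted p = 1.4e-08) and Syt2 2.83-fold (1.50 ± 0.19 (SE), adjusted p = 8.9e-07), each in 5 of 5 pools and without overlap. Vamp2 rose from 1022 ± 138 to 1669 ± 185 cpm (SD, n = 5), about as in the RBP4 line (0.71 ± 0.13 (SE), adjusted p = 0.00012). Stx1a fell in 5 of 5 pools from 347 ± 45.9 to 106 ± 44.2 cpm, a log2 fold change of -1.71 ± 0.20 (SE), adjusted p = 3.9e-07 (edgeR). Snap25 (-0.093 ± 0.19), Syt1 (-0.33 ± 0.15, adjusted p = 0.055, and -0.34 with 0.031 without replicate 3) and Cplx2 (0.0062 ± 0.12) did not pass. Over all genes, 21.0% were higher and 41.8% lower in TRAP.

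All-gene medians were themselves below 0 in these contrasts, -0.34 in RBP4 and -0.31 in VGAT, and TMM factors moved them by 0.29 and 0.25. Measured from that median, the RBP4 values were 0.76 for Snap25, 1.35 for Stx1a, 0.17 for Vamp1, 1.04 for Vamp2, 0.21 for Syt1, -0.49 for Syt2, 0.91 for Cplx1 and -0.39 for Cplx2. With TMM factors or with DESeq2, Syt2 and Cplx2 no longer passed in the RBP4 line and Snap25 did (log2 fold change 0.72 with TMM, 0.70 with DESeq2). In the VGAT line, the relative values were -1.40 for Stx1a, 2.16 for Vamp1, 1.02 for Vamp2, 1.81 for Syt2 and 2.18 for Cplx1, and all 5 calls held under each scaling. The RBP4 calls of 3 members depended on single pools, since without replicate 4 the Syt2 change was -0.76 (adjusted p = 0.051), without replicate 1 the Cplx2 change was -0.65 (0.073), and without replicate 2 or 3 the Cplx1 change was 0.52 (0.12) or 0.46 (0.14). With no filter on low counts the Cplx1 change had an adjusted p of 0.052.

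The change from WCH to TRAP itself differed between the lines for 4 of 8 members. In an interaction term across both lines, the log2 difference, RBP4 over VGAT, was 2.72 ± 0.29 (SE), adjusted p = 4.0e-08 for Stx1a, -2.01 ± 0.19 (SE), adjusted p = 2.2e-09 for Vamp1, -2.33 ± 0.31 (SE), adjusted p = 1.6e-06 for Syt2 and -1.30 ± 0.25 (SE), adjusted p = 0.00044 for Cplx1 (edgeR). For Cplx2 it was -0.73 ± 0.26 (SE), adjusted p = 0.066, and it passed with the pool as a block (-0.73, adjusted p = 0.049), without RBP4 replicate 4 (-0.71, 0.027) or 5 (-0.76, 0.0499), and without the ST library of RBP4 replicate 4 alone (-0.73, 0.011). Among all genes 5.63% were called higher and 6.97% lower, and the members counted 1 higher and 3 lower. Snap25 (0.52 ± 0.33), Vamp2 (-0.0085 ± 0.25) and Syt1 (0.20 ± 0.25) did not pass.

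Within a library, the ratio of 2 paralogs does not depend on how libraries are scaled. Vamp1 made up 1.33%, 2.06%, 1.71%, 1.30% and 2.92% of the Vamp1 and Vamp2 reads per kilobase in the 5 RBP4 TRAP libraries, and 6.84%, 7.15%, 6.69%, 7.12% and 7.04% in VGAT TRAP. The VGAT shares were all above the RBP4 shares and close to each other. By principal transcript length in place of summed exons, the mean share was 3.35% in RBP4 TRAP and 12.03% in VGAT TRAP, where summed exons gave 1.86% and 6.97%, so the size of a share depends on the length used whereas the count ratio tested next does not. The mean log2 count ratio differed by -2.05, exact permutation p = 0.0079, adjusted p = 0.032 over 12 ratio comparisons (5 against 5 libraries, two-sided, where 0.0079 is the smallest p possible). In WCH the shares were 3.30% ± 0.767 in RBP4 and 3.29% ± 0.307 in VGAT (SD, n = 5), and the log2 ratio differed by -0.022, exact permutation p = 0.87, adjusted p = 0.94. In ST they were 2.11% ± 0.428 and 2.50% ± 0.462, with a log2 difference of -0.26, exact permutation p = 0.20, adjusted p = 0.30.

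Syt2 was the pair member that separated the lines in both ribosome fractions. Its share of Syt2 and Syt1 reads per kilobase was 0.539%, 0.706%, 0.731%, 0.484% and 0.881% in RBP4 TRAP and 4.30%, 4.08%, 4.13%, 4.80% and 4.45% in VGAT TRAP. In ST it was 1.15%, 1.28%, 1.50%, 1.98% and 1.13% in RBP4 and 3.72%, 2.98%, 2.48%, 2.10% and 3.64% in VGAT. No RBP4 library reached a VGAT library in either fraction. By principal transcript length the mean share in TRAP was 0.430% in RBP4 and 2.84% in VGAT, where summed exons gave 0.668% and 4.35%. The log2 ratio differed by -2.79, exact permutation p = 0.0079, adjusted p = 0.032 in TRAP, and by -1.11, exact permutation p = 0.0079, adjusted p = 0.032 in ST. Without RBP4 replicate 1 or 2, the adjusted p of the ST difference (exact permutation) was 0.063, with a log2 difference of -1.04 or -1.08. In the fractions without capture the log2 ratio differed by -0.23, exact permutation p = 0.056, adjusted p = 0.11 in WCH (-0.32, adjusted p = 0.032, without RBP4 replicate 5) and by -0.31, exact permutation p = 0.056, adjusted p = 0.11 in SNF.

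Cplx1 was the more abundant complexin per kilobase in the mean of every group. By counts, without division by length, Cplx2 was the higher in SNF and ST. There the mean log2 count ratio of Cplx1 to Cplx2 was -0.70 and -0.72 in RBP4 and -0.25 and -0.64 in VGAT. Cplx1 made up 71.0% ± 4.33 of the complexin reads per kilobase in RBP4 WCH, 85.9% ± 2.66 in TRAP, 57.9% ± 5.89 in SNF and 57.4% ± 11.6 in ST, and 71.3% ± 4.16, 90.1% ± 1.96, 65.2% ± 5.55 and 59.1% ± 3.83 in VGAT (SD, n = 5). Between lines, the log2 ratio in TRAP differed by -0.59, exact permutation p = 0.016, adjusted p = 0.048, with overlapping groups, and without RBP4 replicate 5 by -0.46 (adjusted p = 0.057). Leaving out RBP4 replicate 1, 2 or 4 gave an adjusted p of 0.071 with differences of -0.62, -0.63 and -0.59. In WCH the difference was -0.020, exact permutation p = 0.94, adjusted p = 0.94, in SNF -0.45, exact permutation p = 0.087, adjusted p = 0.15, and in ST -0.083, exact permutation p = 0.83, adjusted p = 0.94. Within a line the fractions were not tested for this ratio.

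**Figure D3:**
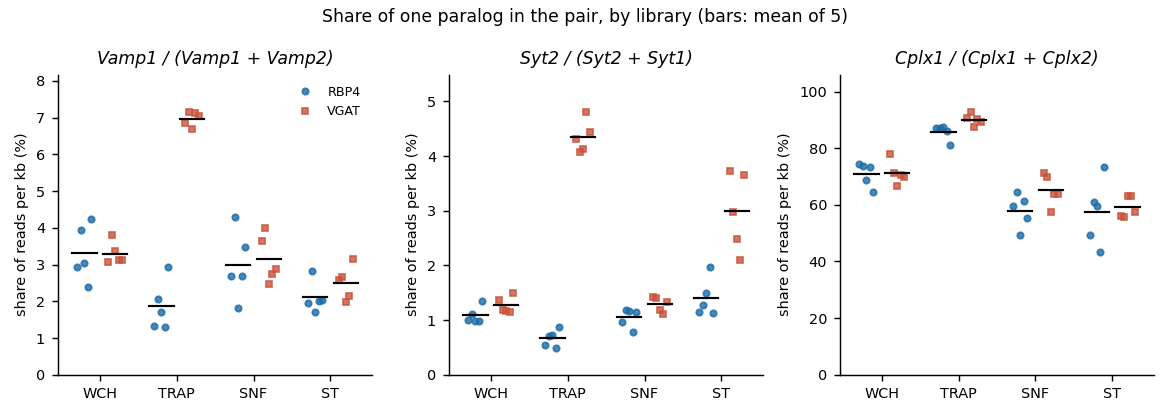
Share of Vamp1, Syt2 and Cplx1 in the reads per kilobase of each paralog pair, in percent, for every library by fraction and line (circles RBP4, squares VGAT; horizontal bars are means of 5 libraries). In TRAP, Vamp1 lies between 1.30% and 2.92% in RBP4 and between 6.69% and 7.15% in VGAT, and Syt2 keeps a gap between the lines in ST.

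Synaptoneurosomes were compared with the homogenate to see which transcripts go with the gradient band. Both calcium sensors rose. Syt1 went from 1869, 2192, 2209, 2028 and 2323 cpm in RBP4 WCH to 4961, 6943, 3199.6, 5888 and 4077 cpm in SNF, and in VGAT the range moved from 1819.6 to 2500.2 cpm in WCH up to a range of 3815 to 6610.0 cpm in SNF. Every SNF library exceeded every WCH library of its line, and the log2 fold change was 1.24 ± 0.23 (SE), adjusted p = 0.00034 in RBP4 and 1.25 ± 0.15 (SE), adjusted p = 5.3e-07 in VGAT (edgeR). Syt2 rose by nearly the same amount, 1.17 ± 0.25 (SE), adjusted p = 0.00091 in RBP4 and 1.30 ± 0.19 (SE), adjusted p = 4.7e-06 in VGAT (edgeR), in 5 of 5 pools of each line. Replicate 3, with the high mitochondrial and astrocyte values given above, had the lowest Syt1 of the SNF libraries in both lines, and without it the Syt1 change was 1.38 (adjusted p = 0.000695) in RBP4 and 1.40 (3.5e-07) in VGAT (edgeR).

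The SNAREs all fell. Snap25 was at 6319, 9639, 9975, 7552 and 8894 cpm in RBP4 WCH and at 3279, 3649.9, 2167, 3723 and 4752 cpm in SNF. No SNF library reached a WCH library, with a log2 fold change of -1.27 ± 0.26 (SE), adjusted p = 0.00068 in RBP4 and -1.52 ± 0.19 (SE), adjusted p = 1.2e-06 in VGAT (edgeR). Replicate 3 was also the lowest SNF library for Snap25 in both lines, and without it the change was -1.07 (adjusted p = 0.0057) in RBP4 and -1.37 (1.1e-05) in VGAT (edgeR). Vamp1 fell with log2 fold changes of -0.93 in RBP4 and -1.05 in VGAT (adjusted p = 0.00024 and 1.6e-06), Vamp2 with -0.80 ± 0.21 and -0.98 ± 0.14 (SE), and Stx1a with -0.59 ± 0.21 and -0.93 ± 0.20, each lower in 5 of 5 pools of both lines. Cplx1 fell too, at -0.85 ± 0.21 in RBP4 and -0.79 ± 0.17 in VGAT. Cplx2 did not pass in RBP4 (0.0049 ± 0.23 (SE), adjusted p = 0.99, edgeR) and fell in VGAT (-0.39 ± 0.12 (SE), adjusted p = 0.0085, edgeR), where it was lower in 5 of 5 pools.

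That makes 2 members higher and 5 lower in RBP4, against 13.4% and 36.1% of all genes, and 2 higher and 6 lower in VGAT, against 19.3% and 45.2%. Here too the median of all genes was below 0, at -0.50 in RBP4 and -0.52 in VGAT, and other scalings moved it by 0.33 to 0.45. Relative to it, the RBP4 values were 1.74 for Syt1, 1.67 for Syt2, -0.77 for Snap25, -0.092 for Stx1a, -0.43 for Vamp1, -0.30 for Vamp2, -0.35 for Cplx1 and 0.50 for Cplx2, and the VGAT values were 1.77 for Syt1, 1.82 for Syt2, -0.42 for Stx1a, -0.54 for Vamp1, -0.46 for Vamp2, -0.28 for Cplx1 and 0.13 for Cplx2. The rise of Syt1 and Syt2 and the fall of Snap25 and Vamp1 were called under every scaling in both lines. With TMM or DESeq2's size factors, Stx1a, Vamp2 and Cplx1 no longer passed in RBP4, and the sign of Cplx2 in VGAT turned with DESeq2 (0.062, adjusted p = 0.71), where Cplx1 was lost too (-0.33, 0.11). The Cplx2 call in VGAT was also lost with TMM (-0.031, adjusted p = 0.87) and with all 40 libraries in 1 fit (-0.39, 0.064). The Stx1a call in RBP4 was also lost without replicate 2 (-0.60, adjusted p = 0.071) or 3 (-0.45, 0.056), and the Cplx2 call in VGAT without replicate 2 (-0.32, 0.059). The 19 glial and endothelial markers summed to 8933 to 14501 cpm in the WCH libraries of RBP4 and to 22853 to 42314 cpm in its SNF libraries, and its part in these changes was not tested.

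Capture from the synaptoneurosome band (ST against SNF) changed Syt1 and Vamp2 in both lines. Their directions were opposite to those from WCH to SNF. Both comparisons use the same SNF libraries with opposite sign, so this reversal is not counted as a separate result. Syt1 fell in both lines, from the SNF values above to 2275, 4033, 1450.3, 2334 and 2980.2 cpm in RBP4 ST and from 5651, 6610.0, 3815, 4865 and 5215 cpm to 2268, 2757, 2116, 2561 and 2415 cpm in VGAT. It was lower in 5 of 5 pools in each line, with a log2 fold change of -0.94 ± 0.23 (SE), adjusted p = 0.010 in RBP4 and -1.11 ± 0.15 (SE), adjusted p = 5.7e-06 in VGAT (edgeR). Vamp2 rose in both, from 563, 411, 618, 640.4 and 604 to 884, 638, 1100.2, 1024 and 1125 cpm in RBP4, and in VGAT it was at 480.2 to 589 cpm in SNF and at 784 to 1133 cpm in ST. It was higher in 5 of 5 pools of each line, at 0.75 ± 0.21 (SE), adjusted p = 0.021 and 0.81 ± 0.14 (SE), adjusted p = 8.9e-05 (edgeR).

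In VGAT, 5 further members passed. Cplx2 rose from 285, 282, 332, 249 and 291 cpm to 681, 619, 640.5, 473 and 637 cpm, without overlap (1.08 ± 0.12 (SE), adjusted p = 9.2e-07, edgeR). Cplx1 (0.68 ± 0.17 (SE), adjusted p = 0.0034), Stx1a (0.55 ± 0.20 (SE), adjusted p = 0.041) and Vamp1 (0.44 ± 0.14 (SE), adjusted p = 0.019) also rose, and Snap25 fell (-0.77 ± 0.19 (SE), adjusted p = 0.0038). Syt2 did not pass (0.10 ± 0.18). The Stx1a and Vamp1 calls were lost with TMM (0.44, adjusted p = 0.096, and 0.33, adjusted p = 0.11), and also without VGAT replicate 4 (0.53, adjusted p = 0.13, and 0.39, adjusted p = 0.094) or 5 (0.48, 0.16, and 0.35, 0.11). The Stx1a call was lost without replicate 1 (0.56, 0.090), the Vamp1 call without replicate 3 (0.41, 0.055), and the Snap25 call without replicate 2 (-0.63, 0.051) and with no genes left out of the depth (-0.56, 0.066). With DESeq2 the Stx1a and Vamp1 calls were lost as well (0.39, 0.13, and 0.29, 0.14), and that of Stx1a with all 40 libraries in 1 fit (0.55, 0.052).

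In RBP4 the other 6 members did not pass, with Stx1a at 0.56 ± 0.21 (SE), adjusted p = 0.086, Cplx1 at 0.58 ± 0.21 (SE), adjusted p = 0.074, Cplx2 at 0.67 ± 0.23 (SE), adjusted p = 0.060, Syt2 at -0.53 ± 0.25, Snap25 at -0.43 ± 0.26 and Vamp1 at 0.23 ± 0.17 (edgeR). With the pool as a block, Stx1a (0.58, adjusted p = 0.035), Cplx1 (0.61, 0.042) and Cplx2 (0.64, 0.029) also passed, so that 5 members were called. Cplx2 passed without replicate 5 as well (0.85, 0.031). Both calls of this line were lost without replicate 1 (Vamp2 0.77, 0.092, and Syt1 -0.90, 0.082) or replicate 4 (Vamp2 0.77, 0.078, and Syt1 -0.84, 0.10), and that of Vamp2 also without replicate 3 (0.73, 0.075). The Syt1 call was lost with no genes left out of the depth as well (-0.73, 0.084). The members counted 1 higher and 1 lower in RBP4, against 5.64% and 5.46% of all genes, and 5 higher and 2 lower in VGAT, against 16.3% and 11.2%. Relative to the all-gene median of 0.083 in VGAT, the changes were -1.19 for Syt1, -0.86 for Snap25 and 0.73 for Vamp2. Summed oligodendrocyte markers were higher in ST than in SNF beside these changes, at 31259 to 43784 cpm against 11796 to 18415 cpm in RBP4 and at 31861 to 53924 cpm against 14472 to 17640 cpm in VGAT, and their part was not tested.

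Ribosome-bound RNA of the band and of the whole homogenate were then set against each other (ST against TRAP). Snap25 fell about equally in both lines, from 9977, 13943, 12795, 9841 and 10272 cpm in RBP4 TRAP to 2954, 3043, 1857, 1242 and 3954 cpm in ST. All 5 ST libraries were below all 5 TRAP libraries in either line, at -2.12 ± 0.27 (SE), adjusted p = 1.4e-06 in RBP4 and -2.20 ± 0.20 (SE), adjusted p = 3.0e-09 in VGAT (edgeR). Vamp2 (-0.74 ± 0.21 and -0.87 ± 0.14), Vamp1 (-0.53 ± 0.17 and -2.45 ± 0.14) and Cplx1 (-0.84 ± 0.21 and -1.99 ± 0.17) fell as well. Cplx2 rose, from the TRAP values above to 578, 404, 504, 1004 and 371 cpm in RBP4 ST, where replicate 4 was highest, at 1.40 ± 0.23 (SE), adjusted p = 2.7e-05 in RBP4 and 0.69 ± 0.12 (SE), adjusted p = 3.8e-05 in VGAT (edgeR). Without the ST library of that replicate the number of RBP4 members called stayed at 7.

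Stx1a went opposite ways, falling in RBP4 to 339, 322, 178, 319.9 and 325 cpm (-1.04 ± 0.21 (SE), adjusted p = 0.00025, edgeR) and rising in VGAT to 285, 247, 224, 249 and 324 cpm (1.32 ± 0.20 (SE), adjusted p = 4.2e-06, edgeR). Syt2 rose in RBP4 to 24.3, 47.9, 20.2, 43.1 and 31.3 cpm (1.47 ± 0.26 (SE), adjusted p = 5.0e-05, edgeR), while in VGAT ST it was at 80.2, 77.7, 49.2, 50.4 and 83.7 cpm, overlapping TRAP (-0.10 ± 0.18 (SE), adjusted p = 0.65). Syt1 passed in VGAT (0.47 ± 0.15 (SE), adjusted p = 0.0068) and not in RBP4 (0.42 ± 0.23 (SE), adjusted p = 0.13), and it passed in RBP4 with DESeq2 (0.57, adjusted p = 0.029) and without replicate 3 (0.59, 0.029). The VGAT call of Syt1 was lost with no genes left out of the depth (0.37, adjusted p = 0.097). The RBP4 call for Vamp1 was lost without replicate 2 (-0.45, 0.063). In total, 2 members were higher and 5 lower in RBP4, against 26.0% and 29.1% of all genes, and 3 higher and 4 lower in VGAT, against 37.5% and 34.0%. Relative to the all-gene median, which was -0.070 in RBP4 and moved by 0.16 with DESeq2's size factors, the RBP4 values were -2.05 for Snap25, -0.97 for Stx1a, 1.54 for Syt2 and 1.47 for Cplx2. Summed glial and endothelial markers were at a median of 1461 cpm in RBP4 TRAP and 50644 cpm in RBP4 ST, and of 823 and 56801 cpm in VGAT, and their part in the falls and rises was not tested.

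**Figure D4:**
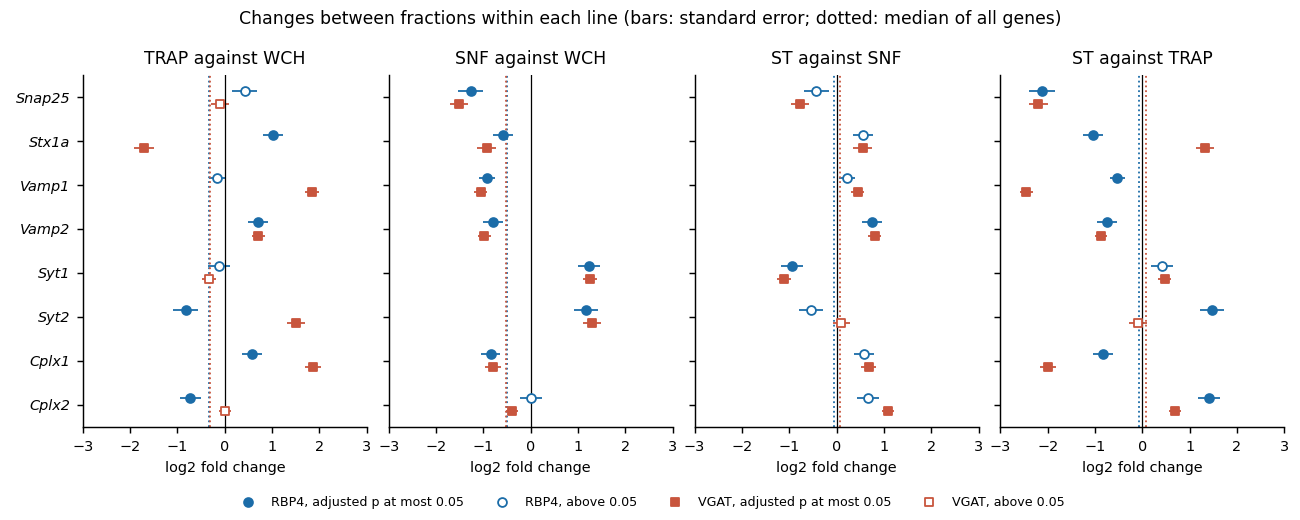
Log2 fold change of the 8 genes between fractions within each line (circles RBP4, squares VGAT), with the standard error (bars); filled points passed the test (edgeR, adjusted p at most 0.05), and dotted lines mark the median of all genes tested. The lines lie close together for SNF against WCH, and on opposite sides of 0 for Stx1a in TRAP against WCH and in ST against TRAP.

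The lines differed much less in ST than in TRAP. Stx1a, at 339, 322, 178, 319.9 and 325 cpm in RBP4 ST and 285, 247, 224, 249 and 324 cpm in VGAT ST, had a log2 difference of 0.16 ± 0.20 (SE), adjusted p = 0.80 (edgeR). Vamp1 was at 40.5, 42.7, 43.5, 48.0 and 53.7 cpm and 48.7, 50.9, 52.4, 51.6 and 58.5 cpm (-0.20 ± 0.13 (SE), adjusted p = 0.59), and Cplx1 at 252 to 455 cpm and 345 to 488 cpm (-0.24 ± 0.18 (SE), adjusted p = 0.63). All overlapped between the lines. Only Syt2 passed, with every VGAT ST library above every RBP4 ST library and a log2 fold change of -1.03 ± 0.21 (SE), adjusted p = 0.024 (edgeR). This is 1 of 8 members, against 0.325% of all genes. The Syt2 call was lost with DESeq2's size factors in edgeR (-0.90, adjusted p = 0.056), without RBP4 replicate 1 (-0.94, 0.083) or 3 (-0.90, 0.097), and without VGAT replicate 1 (-0.97, 0.084), 2 (-0.98, 0.079) or 5 (-0.95, 0.14), and it remained without the ST library of RBP4 replicate 4. Relative to the all-gene median of -0.085, which TMM factors moved by 0.10, the Syt2 difference was -0.95. Summed parvalbumin interneuron markers ran from 161 to 278 cpm in RBP4 ST and from 349 to 534 cpm in VGAT ST, without overlap. The other neuronal lists overlapped between the lines in ST, with GABAergic markers at 205 to 329.9 cpm in RBP4 and 258 to 706 cpm in VGAT, striatal projection neuron markers at 131 to 323 cpm and 254 to 516 cpm, and layer 5 and excitatory markers at 653 to 1202 cpm and 542 to 849.5 cpm. In TRAP the striatal markers were at 76.6 to 148 cpm and 1266 to 2111 cpm, and the layer 5 and excitatory markers at 665 to 1034 cpm and 183 to 337 cpm. The part of these lists in the line differences was not tested.

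In SNF, where nothing was captured, 0 of 8 members were called between the lines (0 at an unadjusted p under 0.05 and 0 with DESeq2), against 0.0169% of 17728 genes. Syt2 had the largest value there, -0.40 ± 0.23, at 44.3, 76.3, 34.5, 42.9 and 43.3 cpm in RBP4 and 75.1, 86.1, 42.0, 50.4 and 64.4 cpm in VGAT. These groups overlapped.

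Tests of the difference between differences bear on whether the step from TRAP to ST depended on the line. The comparison shares its TRAP libraries with the line comparison in TRAP, so the values are given for each gene without counting agreement between them. The log2 change from TRAP to ST, RBP4 over VGAT, was -2.36 ± 0.29 (SE), adjusted p = 9.4e-07 for Stx1a, 1.93 ± 0.19 (SE), adjusted p = 1.4e-08 for Vamp1, 1.56 ± 0.30 (SE), adjusted p = 0.00055 for Syt2 and 1.15 ± 0.25 (SE), adjusted p = 0.0022 for Cplx1 (edgeR). For Snap25 (0.076 ± 0.33), Vamp2 (0.13 ± 0.25), Syt1 (-0.046 ± 0.25) and Cplx2 (0.71 ± 0.26 (SE), adjusted p = 0.080) it did not pass. With DESeq2, and without RBP4 replicate 2 or 5, Cplx2 passed as well (0.80, adjusted p = 0.022, 0.82, 0.049, and 0.88, 0.025). Thus 3 of 8 were higher and 1 of 8 lower, against 5.02% and 5.79% of all genes. For the step from SNF to ST, 0 of 8 members differed between the lines (0 at an unadjusted p under 0.05 and 0 with DESeq2), against 0% of all 17728 genes (edgeR), with log2 differences from -0.64 ± 0.32 (SE) for Syt2 to 0.34 ± 0.32 for Snap25.

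Genes of the same pathway, 78 in 6 lists of which 77 matched an identifier, were counted in the same fits. Of the other SNAREs, 0 of 10 tested were called between the lines in TRAP, whereas 8 of 14 other synaptotagmins were called higher and 2 lower in RBP4. Over all genes in this contrast, 12.9% were higher and 15.1% lower. Syt6 had the largest such difference (-3.95 ± 0.26, SE, adjusted p = 3.9e-13, edgeR), at 3.98 ± 2.06 cpm in RBP4 and 61.4 ± 5.61 cpm in VGAT (SD, n = 5), followed by Syt17 (1.88 ± 0.31) and Syt16 (1.31 ± 0.17). Among SNARE regulators, 6 of 19 were higher and 5 lower in RBP4, with Doc2a, a calcium-binding C2-domain protein, at 2.18 ± 0.41 and Unc13c, a priming factor, at -1.54 ± 0.34. Of 11 vesicle proteins, 1 was higher (Sv2b, 2.74 ± 0.31) and 3 lower, including Synpr (synaptoporin, -1.74 ± 0.27) and Sv2c (-1.46 ± 0.31). Active zone genes counted 3 higher and 2 lower of 14, and endocytosis genes of the vesicle cycle 2 higher and 1 lower of 7. The median log2 difference over the 75 tested was 0.27, beside -0.015 over all genes. None of the 75 passed between the lines in WCH or ST by edgeR, where 0.0118% and 0.325% of all genes did.

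Between WCH and SNF, the lists went in different directions, where all genes counted 13.4% higher and 36.1% lower in RBP4 and 19.3% and 45.2% in VGAT. In RBP4, 7 of 14 other synaptotagmins and 7 of 11 vesicle proteins rose, and 1 and 2 fell. Of 20 SNARE regulators 14 fell and 1 rose, and 7 of 7 recycling genes fell. Other SNAREs counted 1 higher and 4 lower of 10, and active zone genes 0 and 5 of 14. In VGAT the counts were 8 and 1 of 14 synaptotagmins, 8 and 2 of 11 vesicle proteins, 1 and 15 of 19 regulators, 0 and 7 of 7 recycling genes, 1 and 7 of 10 other SNAREs, and 1 and 9 of 14 active zone genes. The medians in RBP4 were 0.70 for synaptotagmins, 0.94 for vesicle proteins, -0.93 for regulators, -0.97 for recycling genes, -0.51 for other SNAREs and -0.32 for active zone genes, beside -0.50 for all genes.

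From TRAP to ST, 9 of 14 active zone genes rose in RBP4 and 10 of 14 in VGAT, with 2 and 1 lower, where all genes counted 26.0% higher and 29.1% lower in RBP4 and 37.5% and 34.0% in VGAT. Bassoon (Bsn), an active zone scaffold, rose by 1.67 ± 0.24 in RBP4 and 2.83 ± 0.21 in VGAT, and Rims1, a scaffold that docks vesicles, by 2.24 ± 0.25 and 2.07 ± 0.17 (SE, edgeR). Vamp3, a SNARE best known from glia and other non-neuronal cells, rose by 2.72 ± 0.22 and 3.16 ± 0.19, the largest value among the other SNAREs in both lines. Of the recycling genes none rose, and 5 of 7 fell in RBP4 and 6 of 7 in VGAT. The 19 glial and endothelial markers rose beside these lists from a median sum of 1461 to 50644 cpm in RBP4 and from 823 to 56801 cpm in VGAT, and their part was not tested.

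Finally, the genes with the most similar profiles over the 40 libraries were listed for each member among the 9113 genes whose mean reached 10 cpm, by Pearson's r of log2(cpm + 1). The libraries share pools, fractions and depth, so these values describe likeness and nothing more. For Snap25 they were Vsnl1 (r = 0.978), Zc2hc1a (0.969) and Sfxn3 (0.967), and for Syt1 Atp2a2 (0.971), Tmx4 (0.965) and Tmem30a (0.959). Vamp1 was closest to Kcnab3 (0.977), Cygb (0.966) and Ap1s2 (0.959), and Syt2 to Kcnk3 (0.946), Kcnc1 (0.941), which encodes the fast-spiking potassium channel Kv3.1, and Slc39a13 (0.940). Vamp2 was closest to Sh3bp1 (0.967), Habp4 (0.959) and Kcmf1 (0.950), and Cplx1 to Unc119 (0.965), Irf2bp1 (0.955) and Ubald1 (0.950). Stx1a had lower values, with Coro2a (0.894), Rasal1 (0.885) and Neurod2 (0.882), as did Cplx2 with Ppfia4 (0.908), Hmbox1 (0.894) and Arhgef4 (0.883).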

How the data were processed

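RNA was sequenced from 40 libraries (8 groups of 5) prepared from 30 ng of total RNA each with a kit that does not mark strand and without molecular identifiers. Intervals rest on the spread among replicate libraries of separate pools, and cover no PCR or pool differences beyond these replicates. The authors aligned single reads of 50 bases with STAR 2.0.4b and assigned the uniquely aligned ones to genes with featureCounts 1.4.5; the deposited files hold whole-number counts, CPM and RPKM for 41388 genes, of which 40254 matched a symbol. The deposited CPM and RPKM were recomputed from the counts without difference and not used further. The genome build is not given in the sources used here; 87.8% of 40340 shared genes had the same start or end in GENCODE M21 (GRCm38), including 7 of the 8 members exactly, and Vamp1 has another end. Replicates are pools of forebrains, and the 4 fractions of a pool carry its number, per the labels. This pairs fractions within a line, not the lines, which come from separate pools. Deviations from group means correlated between same-numbered TRAP and WCH libraries at a mean of 0.29 in RBP4 and 0.34 in VGAT. Different numbers gave -0.070 and -0.087. The same-number means were 0.23 and 0.36 for SNF with WCH and 0.41 and 0.48 for ST with SNF. For ST with TRAP they were only -0.018 and 0.060, beside -0.00051 and -0.015 for different numbers.

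Library size was the total without 37 mitochondrial and 353 rRNA and tRNA genes, with no further factor, after the study's methods. Genes reaching 0.5 cpm in 3 or more libraries were tested with edgeR 4.0.16 in R 4.3.3 (glmQLFit, glmQLFTest), group as the only term, Benjamini-Hochberg over all genes, a call being an adjusted p of at most 0.05. The SE of a log2 fold change is its size divided by the square root of the test's F statistic. Within-line contrasts used the 20 libraries of the line, line comparisons in WCH, TRAP and ST the 30 libraries of these fractions (filter on TRAP and ST), and those with SNF all 40. A pair's log2 count ratio was compared by an exact two-sided permutation test, adjusted over 12 comparisons. On simulated counts, 116 of 200 genes changed by 1 on the log2 scale, up or down, were called for TRAP against WCH in RBP4 with 2 false calls among 16645 genes. Other settings tried were DESeq2 1.42.0, edgeR's likelihood ratio test, TMM, other filters and genes kept, all 40 libraries, the replicate block and left-out replicates. The 8 genes, lists and tests were chosen with earlier results of these data known. The named genes were the 8 members, up to 3 called genes of each list with the largest change, the 3 most alike per member, and Slc32a1. Lists were other SNAREs, other synaptotagmins, SNARE regulators, active zone, vesicle proteins and vesicle recycling. The values of a single gene that this rule picks are not reported here. Marker lists covered layer 5 and excitatory neurons, GABAergic, parvalbumin and striatal neurons, astrocytes, oligodendrocytes, microglia and endothelium. Their summed medians in RBP4 and VGAT TRAP were 911 and 207 cpm for layer 5, 124 and 1749 for striatal, 631 and 252 for astrocytes, 10.1 and 33.4 for microglia and 1.55 and 0.581 for endothelium.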

Additional observations from a re-analysis of the deposited data

Results flagged for a closer look

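Single libraries stood apart from the other 4 of their group by Dixon's criterion in 3 of 64 groups of member levels and in 1 of 24 groups of paralog ratios, where chance gives about 1 in 20. Stx1a was at 178 cpm in RBP4 ST replicate 3, and between 320 and 339 cpm in the other 4. Syt2 was at 76.3 cpm in RBP4 SNF replicate 2, and between 34.5 and 44.3 cpm in the other 4. Cplx1 was at 488 cpm in VGAT ST replicate 3, and between 345 and 384 cpm in the other 4. The log2 count ratio of Cplx1 to Cplx2 was 0.94 in RBP4 TRAP replicate 5, and between 1.47 and 1.65 in the other 4.

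In 8 of 24 tests of a difference between the lines, the change between 2 fractions differed by edgeR's interaction test. The calls were the same 4 members for TRAP over WCH and for ST over TRAP, and 0 of 8 for ST over SNF. Over all genes, 5.63% were higher and 6.97% lower for TRAP over WCH, and 5.02% and 5.79% for ST over TRAP. For ST over SNF 0% of all genes were called. For TRAP over WCH, the log2 difference was 2.72 ± 0.29 (SE), adjusted p = 4.0e-08 for Stx1a, -2.01 ± 0.19 (SE), adjusted p = 2.2e-09 for Vamp1, -2.33 ± 0.31 (SE), adjusted p = 1.6e-06 for Syt2 and -1.30 ± 0.25 (SE), adjusted p = 0.00044 for Cplx1. For ST over TRAP it was -2.36 ± 0.29 (SE), adjusted p = 9.4e-07 for Stx1a, 1.93 ± 0.19 (SE), adjusted p = 1.4e-08 for Vamp1, 1.56 ± 0.30 (SE), adjusted p = 0.00055 for Syt2 and 1.15 ± 0.25 (SE), adjusted p = 0.0022 for Cplx1. The tests of TRAP over WCH and of ST over TRAP use the same TRAP libraries.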

How the results depend on the processing

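Of 62 called values, 46 kept their call under all alternatives run, 16 lost it under at least 1, and 1 changed sign, without a call. Of 58 values without a call, 8 were called under at least 1. Counts of members stayed within 1.5 times the value given in 248 of 265 refits. The causes were not tested. Values are log2 differences unless they are counts of members. The 7 members called for SNF/WCH in RBP4 became 4 with DESeq2, 4 with TMM factors and 4 with DESeq2's size factors in edgeR. The 2 members called for ST/SNF in RBP4 became 5 with DESeq2, 4 with TMM factors, 4 with no genes left out, 4 with all 40 libraries in 1 fit and 5 with the pool as a replicate block. The 1 member called for lines in ST became 0 with DESeq2's size factors in edgeR. With DESeq2, the sign turned for Vamp1 0.11 and Syt1 0.16 (TRAP/WCH in RBP4), Snap25 0.14 (TRAP/WCH in VGAT), Cplx2 0.062 (SNF/WCH in VGAT), Syt2 -0.058 (ST/SNF in VGAT), Cplx2 0.024 (lines in ST), Vamp1 -0.021 (lines in SNF), Vamp2 0.034 (line difference of TRAP/WCH), Syt1 0.047 (line difference of ST/TRAP) and Vamp2 0.076 and Cplx1 0.033 (line difference of ST/SNF). With TMM factors, the sign turned for Vamp1 0.12 and Syt1 0.17 (TRAP/WCH in RBP4), Snap25 0.16 (TRAP/WCH in VGAT), Syt2 -0.013 (ST/SNF in VGAT), Vamp2 0.0063 (lines in TRAP), Cplx2 0.00040 (lines in ST), Vamp1 -0.00019 (lines in SNF), Vamp2 0.078 (line difference of TRAP/WCH) and Vamp2 0.091 and Cplx1 0.053 (line difference of ST/SNF). With DESeq2's size factors in edgeR, the sign turned for Vamp1 0.11 and Syt1 0.16 (TRAP/WCH in RBP4), Snap25 0.14 (TRAP/WCH in VGAT), Cplx2 0.063 (SNF/WCH in VGAT), Syt2 -0.058 (ST/SNF in VGAT), Cplx2 0.024 (lines in ST), Vamp1 -0.022 (lines in SNF), Vamp2 0.034 (line difference of TRAP/WCH), Syt1 0.047 (line difference of ST/TRAP) and Vamp2 0.076 and Cplx1 0.033 (line difference of ST/SNF). With no genes left out, the sign turned for Cplx2 -0.23 (SNF/WCH in RBP4), Vamp2 0.026 (line difference of TRAP/WCH) and Stx1a -0.00018 (line difference of ST/SNF). With the pool as a replicate block, the sign turned for Cplx2 -0.016 (SNF/WCH in RBP4). Without the TRAP library of RBP4 replicate 5, the sign turned for Vamp2 0.053 (lines in TRAP) and Vamp2 0.11 (line difference of TRAP/WCH). Without the ST library of RBP4 replicate 4, the sign turned for Stx1a -0.014 (line difference of ST/SNF). As a share per kilobase, the sign turned for Vamp1 to Vamp2 0.011 (lines in WCH). Leaving out each replicate in turn gave these lowest and highest values. For TRAP/WCH in VGAT, Cplx2 -0.050 to 0.13. For SNF/WCH in RBP4, Cplx2 -0.050 to 0.086. For ST/SNF in RBP4, count 0 to 3. For ST/TRAP in VGAT, Syt2 -0.21 to 0.045. Between lines in WCH, Vamp2 -0.14 to 0.050, Syt1 -0.11 to 0.0021, Cplx1 -0.20 to 0.021, Vamp1 to Vamp2 -0.12 to 0.092, Syt2 to Syt1 -0.32 to -0.17 and Cplx1 to Cplx2 -0.10 to 0.10. Between lines in TRAP, Vamp2 -0.14 to 0.053 and Cplx1 to Cplx2 -0.69 to -0.46. Between lines in ST, count 0 to 1, Syt1 -0.10 to 0.26, Cplx2 -0.39 to 0.029, Syt2 to Syt1 -1.24 to -1.02 and Cplx1 to Cplx2 -0.34 to 0.13. Between lines in SNF, Snap25 -0.035 to 0.23, Vamp1 -0.086 to 0.13, Syt1 -0.21 to 0.064 and Vamp1 to Vamp2 -0.26 to 0.060. For line difference of TRAP/WCH, Vamp2 -0.048 to 0.036. For line difference of ST/TRAP, Snap25 -0.16 to 0.25, Vamp2 -0.051 to 0.25 and Syt1 -0.28 to 0.12. For line difference of ST/SNF, Stx1a -0.082 to 0.090 and Cplx1 -0.22 to 0.063. Pools of the same number pair fractions within a line, and the replicate block changed no further call there. Between the lines, a shared number does not mean a shared pool. Same-numbered libraries still correlated at a mean of 0.21 in WCH, 0.16 in TRAP, 0.23 in SNF and 0.051 in ST, over a range of -0.51 to 0.78. Different numbers gave means of -0.051, -0.034, -0.043 and -0.011. What same-numbered libraries share across the lines was not tested. A block on the number left the 0, 5, 1 and 0 members called in WCH, TRAP, ST and SNF as they were. The alternative without the TRAP library of RBP4 replicate 5 was chosen after seeing the data. A count of 1 equalled at most 0.112 cpm, and the lowest member level in any library was 8.05 cpm.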

Other observations

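Sv2b and Sv2c, paralogs of the vesicle protein Sv2a, lay on opposite sides of 0 between the lines in TRAP. Sv2b was at 463 ± 54.6 cpm in RBP4 and 69.5 ± 41.9 cpm in VGAT (SD, n = 5), with a log2 fold change of 2.74 ± 0.31 (SE, adjusted p = 2.9e-08, edgeR). Sv2c was at 1.50 ± 0.551 cpm and 4.12 ± 1.31 cpm, with -1.46 ± 0.31 (adjusted p = 0.00048, edgeR). Among endocytosis genes, Sh3gl2 (endophilin A1) was higher in RBP4 (1.07 ± 0.20, adjusted p = 8.5e-05, edgeR) and Dnm3 (dynamin 3) was lower (-1.26 ± 0.15, adjusted p = 1.5e-07, edgeR).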
